A study of Mus musculus with 6 samples.

Results

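The 5 genes followed here belong to fibroblast and meningeal matrix: Col1a1, Col1a2, Col3a1, Dcn and Igf2. They were chosen by name, with earlier results of these data known, and all 5 were found by symbol among the 10989 genes of the deposited table. The 3 libraries called Input hold RNA of a dissociated mouse brain suspension, and the 3 called Positive hold RNA of the cells sorted from it as endothelium (EGFP positive, CD31 positive, CD11b negative). Every mouse carried Tie2-cre and NuTRAP, a Cre-dependent reporter that puts EGFP on ribosomes and mCherry on nuclei, and every title reads WT, so there was no group without the reporter. Strain, age and sex are not given in the labels. The Tie2 promoter is active in endothelium and also in blood-forming cells; CD11b marks myeloid cells, and the Input suspension still holds endothelium. Replicate numbers 1222, 1223 and 1227 occur in both fractions; the series text calls them biological, but no label ties a number to 1 animal, and the p-values cover the spread seen among these 6 libraries only.

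As background, fibroblasts of the brain lie in the meninges and in a thin layer around larger vessels, and they build a fibrous matrix that capillaries of the parenchyma lack. Col1a1 and Col1a2 encode the chains of type I collagen, the main tension-bearing fibril, and Col3a1 encodes the chain of type III collagen, which forms mixed fibrils with it. Dcn encodes decorin, a small leucine-rich proteoglycan that binds collagen fibrils, and Igf2 encodes a growth factor that leptomeninges and choroid plexus secrete in the adult brain. Brain endothelium makes instead the network-forming type IV collagen of the basement membrane.

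The start regions of 3 of the 5 genes are listed by RefSeq (GRCm38.p6, the assembly also called mm10), each from 250 bases before to 50 bases after a start site, and those of Col1a1 and Dcn are not used here. They are shown as background only. The printed Col3a1 window differs in G and C content from those of Col1a2 and Igf2, which lie close together. Capitals mark 3 motifs searched on both strands. They are the TATA box letters TATAAA, the CCAAT box (which reads ATTGG on the other strand) and the GC box letters GGGCGG, and no match overlapped another. The sequences read 5′ to 3′ on the gene's own strand.

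Col3a1, chr1:45311288-45311587, plus strand: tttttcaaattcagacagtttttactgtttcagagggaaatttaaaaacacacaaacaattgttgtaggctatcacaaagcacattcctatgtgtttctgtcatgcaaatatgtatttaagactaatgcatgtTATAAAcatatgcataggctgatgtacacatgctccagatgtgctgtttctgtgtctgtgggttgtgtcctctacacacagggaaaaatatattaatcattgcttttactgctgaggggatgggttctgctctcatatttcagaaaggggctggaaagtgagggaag
Col1a2, chr6:4505368-4505667, plus strand: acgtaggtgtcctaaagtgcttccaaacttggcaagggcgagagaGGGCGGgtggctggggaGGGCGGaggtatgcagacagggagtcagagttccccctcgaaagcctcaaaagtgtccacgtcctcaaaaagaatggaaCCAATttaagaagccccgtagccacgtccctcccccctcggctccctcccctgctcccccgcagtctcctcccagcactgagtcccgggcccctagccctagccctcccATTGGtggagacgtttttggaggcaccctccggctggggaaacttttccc
Igf2, chr7:142657447-142657746, minus strand: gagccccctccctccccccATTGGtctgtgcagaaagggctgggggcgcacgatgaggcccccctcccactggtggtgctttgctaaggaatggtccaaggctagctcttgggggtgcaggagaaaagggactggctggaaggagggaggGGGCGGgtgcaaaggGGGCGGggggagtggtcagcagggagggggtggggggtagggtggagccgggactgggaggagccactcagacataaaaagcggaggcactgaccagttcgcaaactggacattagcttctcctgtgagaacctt

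The Col3a1 window held 37.7% G and C and 1 TATAAA, beginning 117 bases before the start site. The Col1a2 window held 61.0% G and C, 2 GGGCGG beginning 205 and 188 bases before the RefSeq start site, and 2 CCAAT. Of these 2 CCAAT, 1 was on the other strand at the RefSeq start site itself. The deposited Col1a2 start, 4505697, lies past the end of this window, so these distances hold for the RefSeq start only. RefSeq lists 4 Igf2 start regions, and the one printed was chosen because it held the most matches, with 63.3% G and C, 2 GGGCGG and 1 CCAAT. The other 3 held 52.3%, 49.7% and 64.7% G and C, the last of them with 1 GGGCGG and the others with no match. The deposited Igf2 start, 142661035 on the minus strand, lies in none of these 4 windows. The counts of a gene cannot tell the RefSeq starts apart. Over all 32851 listed start regions the median G and C content was 52.7%, and TATAAA occurred in 13.6%, CCAAT in 37.4% and GGGCGG in 35.7% of them. These matches are letters in a window and were not tied to any measurement.

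All 5 genes were lower in the sorted cells, by edgeR's quasi-likelihood test with Benjamini-Hochberg adjustment over all genes (adjusted p below 0.05), while 29.4% of all genes tested were lower and 26.1% higher. The mean level in Positive was 19.3% of that in Input for Col1a1, 38.2% for Col1a2, 38.5% for Igf2, 43.8% for Dcn and 62.3% for Col3a1. Whether these falls differ is asked below, by a permutation test that cannot give a p below 0.1. For 4 of the 5 genes every Positive library lay below every Input library, which held for 32.6% of all genes; Dcn was the exception. The count of 5 was 3 without Input 1222, Input 1227, Positive 1222, Positive 1223 or both libraries of 1222, with Col3a1 and Dcn losing their calls. Fewer cells that hold these RNAs and less of them per cell cannot be told apart in bulk RNA, and which cells the RNAs came from was not tested. Col1a1 and Dcn were in the table through Input alone, because the authors kept a gene when all libraries of 1 fraction had at least 50 estimated counts, and 1531 of the 1897 genes kept this way fell, a share against which both calls are to be read. Col1a2, Col3a1 and Igf2 were kept through both fractions, where 1696 of 8509 genes fell. Positive 1223 had 46.4 estimated counts of Col1a1 and 33.0 of Dcn.

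**Figure D1:**
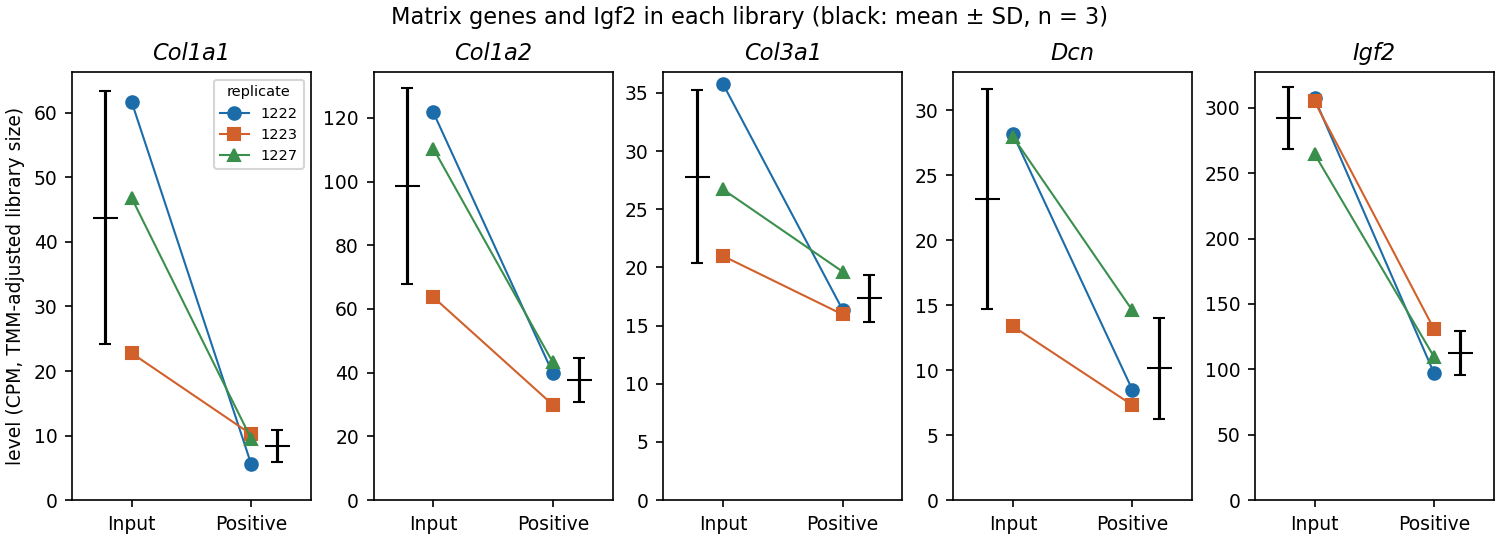
Level of each gene (y axis, CPM) in the 3 Input and 3 Positive libraries; lines join libraries of 1 replicate number and black marks show mean ± SD (n = 3). All 15 lines descend, steeply for Col1a1 and least for Col3a1.

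Col1a1 (Entrez 12842, chromosome 11, 94936270 to 94951856, plus strand, mm10) stood at 61.7, 22.8 and 46.8 CPM in Input 1222, 1223 and 1227, where CPM is the count scaled to the TMM-adjusted library size. In Positive 1222, 1223 and 1227 it stood at 5.61, 10.2 and 9.53 CPM. The fractions did not overlap, although Input 1223 held less of it than the other Input libraries. The means were 43.8 ± 19.6 and 8.45 ± 2.48 CPM (SD, n = 3). The fitted log2 fold change was -2.42 ± 0.39 (SE; edgeR adjusted p = 0.000789). Within a replicate number the log2 difference was -3.46 in 1222, -1.16 in 1223 and -2.30 in 1227. Leaving out number 1222 gave a log2 fold change of -1.84, still called, and leaving out number 1223 gave -2.85.

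Col1a2 (Entrez 12843, chromosome 6, 4505697 to 4541543, plus strand), the partner chain of Col1a1 in type I collagen, stood at 121.7, 63.7 and 110.4 CPM in Input 1222, 1223 and 1227. Its Positive libraries stood at 39.9, 29.9 and 43.3 CPM in the same numbers. Input 1223 was again the lowest Input library and the fractions did not overlap. From 98.6 ± 30.7 to 37.7 ± 6.93 CPM (SD, n = 3), the log2 fold change was -1.38 ± 0.25 (SE, adjusted p = 0.0017). Within numbers the log2 difference was -1.61, -1.09 and -1.35 in 1222, 1223 and 1227.

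Col3a1 (Entrez 12825, chromosome 1, 45311538 to 45349706, plus strand) moved least. Its Input libraries stood at 35.8, 21.0 and 26.7 CPM in 1222, 1223 and 1227, and its Positive libraries at 16.4, 15.96 and 19.6 CPM. The highest Positive library lay close under the lowest Input library. The means were 27.8 ± 7.45 and 17.3 ± 2.02 CPM (SD, n = 3). The fitted log2 fold change was -0.69 ± 0.23 (SE; edgeR adjusted p = 0.0316). The call rested on single libraries: it ended without Input 1222 (log2 -0.47, adjusted p = 0.139), Input 1227 (-0.72, 0.0706), Positive 1222 (-0.64, 0.0827) or Positive 1223 (-0.64, 0.0765). It also ended without both libraries of 1222 (-0.42, 0.267) or both of 1227 (-0.83, 0.103), and when limma was run on the log2 values as deposited (-0.58, 0.075). Over all 16 other settings the adjusted p ran from 0.0115 to 0.267. Within numbers the log2 difference was -1.13 in 1222, -0.39 in 1223 and -0.44 in 1227. A predicted gene, Gm47302, shares exon sequence with Col3a1 on the same strand in GENCODE M21, and the counting could split reads between them.

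Dcn (Entrez 13179, chromosome 10, 97479500 to 97518162, plus strand) stood at 28.2, 13.4 and 27.98 CPM in Input 1222, 1223 and 1227. Its Positive libraries stood at 8.5, 7.32 and 14.6 CPM. The fractions overlapped, since Positive 1227 was above Input 1223, but within each number Positive was the lower library, at 30.2%, 54.7% and 52.2% of Input in 1222, 1223 and 1227. The means were 23.2 ± 8.49 and 10.1 ± 3.92 CPM (SD, n = 3). The fitted log2 fold change was -1.19 ± 0.36 (SE; edgeR adjusted p = 0.0216). The call ended without Input 1222 (log2 -1.03, adjusted p = 0.0699), Input 1227 (-1.04, 0.0816), Positive 1222 (-1.04, 0.0619) or Positive 1223 (-1.03, 0.061), and without both libraries of 1222 (-0.89, 0.168). Over all 16 other settings the adjusted p ran from 0.00487 to 0.168.

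Igf2 (Entrez 16002, chromosome 7, 142650768 to 142661035, minus strand) was the most even of the 5 across Input. It stood at 307.2, 304.9 and 264.7 CPM in Input 1222, 1223 and 1227, and at 97.1, 130.8 and 109.6 CPM in the Positive libraries. The fractions were far apart and, unlike the collagens and Dcn, Igf2 was not low in Input 1223. Its coefficient of variation over Input was 8.2%, against 26.8% for Col3a1, 31.2% for Col1a2, 36.6% for Dcn and 44.9% for Col1a1. The means were 292.3 ± 23.9 and 112.5 ± 17.03 CPM (SD, n = 3). The fitted log2 fold change was -1.38 ± 0.15 (SE; edgeR adjusted p = 7.59e-05). In GENCODE M21 the antisense gene Igf2os and the same-strand gene Gm49394 share exon sequence with Igf2; the library kit keeps strand, but whether the counting used it is not given in the sources used here.

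**Figure D2:**
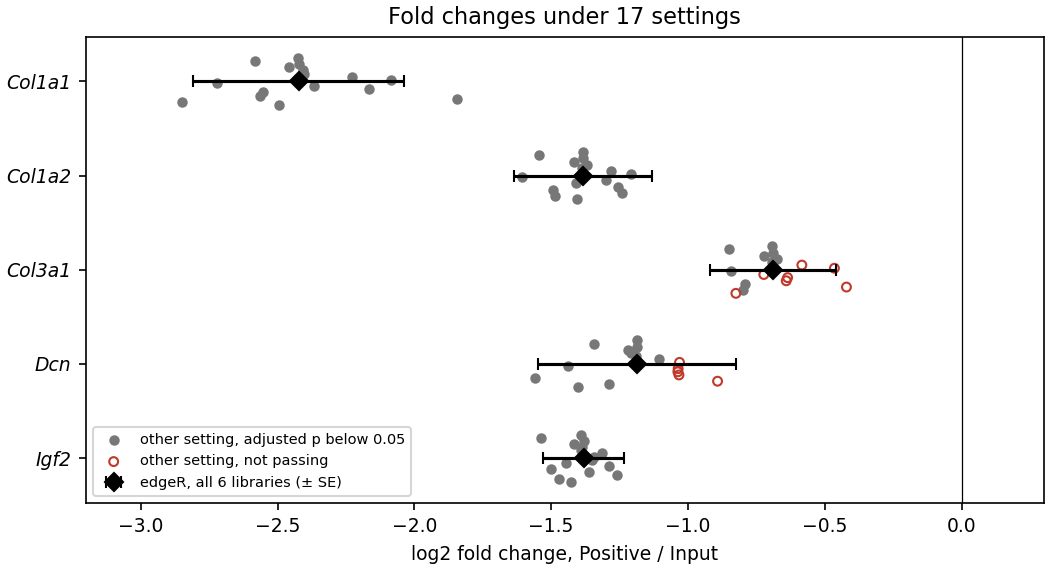
Log2 fold change of each gene, Positive over Input (x axis): black diamonds are the edgeR fit on all 6 libraries ± SE, and circles the 16 other settings, open red where adjusted p was 0.05 or more. Col1a1, Col1a2 and Igf2 have no open circle, Col3a1 has 7 and Dcn 5, and every value is below 0.

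Levels of different genes were compared per kilobase of exon, with lengths from the union of exons in GENCODE M21 basic. In Input the order was the same in all 3 libraries: Igf2 at 55.7 ± 4.55 CPM per kb (SD, n = 3), Col1a2 at 18.4 ± 5.75, Dcn at 11.96 ± 4.38, Col1a1 at 7.38 ± 3.31 and Col3a1 at 5.0 ± 1.34. Igf2 was clear of the rest, while each later neighbour in this order overlapped the next in range. In the 3 Positive libraries Igf2 (21.4 ± 3.24), Col1a2 (7.05 ± 1.30) and Dcn (5.23 ± 2.02) kept their places, and Col3a1 (3.11 ± 0.36) stood above Col1a1 (1.42 ± 0.42) in each library. Col1a2 and Dcn overlapped in Positive, and the other neighbours did not. RNA of these genes was measured in every sorted library, with Igf2 at rank 2028 of 10989 genes by mean CPM in Positive and rank 482 in Input.

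Whether the 5 genes fell by the same amount was asked with log2 ratios of each pair within a library, which do not move with scaling. The 10 pairs were compared by an exact two-sided permutation test of 3 libraries against 3, which cannot give a p below 0.1. The ratio of Col1a1 to Col1a2 per kb was 0.457, 0.322 and 0.383 in Input 1222, 1223 and 1227 and 0.127, 0.307 and 0.199 in Positive. Positive was lower in all numbers, narrowly in 1223, and the log2 ratio fell by 0.96 (exact permutation p = 0.1, adjusted over the 10 pairs 0.2). The log2 ratio of Col1a1 to Col3a1 fell by 1.65, of Col1a1 to Dcn by 1.13 and of Col1a2 to Col3a1 by 0.70, and that of Col3a1 to Igf2 rose by 0.73 with the fractions apart; each of these 4 also had the smallest p possible, 0.1 (adjusted 0.2). The other 5 ratios overlapped between fractions. Their log2 changes were 0.03 for Col1a2 to Igf2 (exact permutation p = 0.9), 0.21 for Dcn to Igf2 (p = 0.7) and -0.17 for Col1a2 to Dcn (p = 0.6). They were -0.92 for Col1a1 to Igf2 (exact permutation p = 0.3) and 0.53 for Col3a1 to Dcn (p = 0.2). By this test no pair could pass 0.05. A sign-flip test of the ratio differences within replicate numbers, which cannot give a p below 0.25, gave 0.25 to 0.75 over the 10 pairs.

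The 3 genes with the pattern most like each member were taken by the root mean square (RMS) difference of log2 CPM, centred per gene, over the 6 libraries. For Dcn the nearest were Rab34 (0.14), Hey2 (0.21) and Golm1 (0.22), and Col1a2 was the fifth nearest of 10099 candidates (0.23). For Col1a2 they were Gramd4 (0.10), Smap2 (0.15) and Slc41a1 (0.16). Dcn was too low in level to be among the 6027 candidates for Col1a2. Its distance of 0.23 would have taken place 35 among those candidates. For Col3a1 the nearest were Dmd (0.10), Chsy1 (0.11) and Cul4b (0.11). For Igf2 they were Mgll (0.14), Neo1 (0.15) and Cst3 (0.15), and for Col1a1 Dcaf12l1 (0.25), Cacnb4 (0.26) and Sowahc (0.31). Col1a1 and Col1a2, whose proteins share a fibril, were 0.62 apart, in place 385 of 9163 from Col1a1. These distances rest on 6 libraries that share 1 contrast, so a like fall alone makes genes near.

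Other genes of fibroblasts and meninges did not move as 1 block. Of 43 listed, 27 were tested and 16 not analysed here; 14 were lower, 7 higher and 6 not called, with a median log2 fold change of -1.48 against 0.03 over all genes. The 3 with the highest mean over all 6 libraries, a mean that a rise itself lifts, were called higher: the organic anion transporter Slc22a8 from 102.6 ± 26.3 to 715.3 ± 64.7 CPM (SD, n = 3; log2 2.81 ± 0.20), the matrix Gla protein gene Mgp by log2 1.68 ± 0.15 and the transcription factor gene Foxc1 by 2.35 ± 0.20. In Input alone the highest of the list was Slc13a3, a transporter gene that fell (108.3 CPM, log2 -3.67), and Islr, Cdh11, Zic1 and Fbln1, which all fell, stood above Foxc1. The other 4 that rose were Eln, which encodes elastin (log2 1.87), the laminin chain gene Lamc3 (1.45), the transporter gene Slc6a20a (1.22) and Pi16 (1.39). Several of these 7 genes are also known in brain endothelium or mural cells. Among the 14 that fell were Pdgfra, a receptor of fibroblasts and also of oligodendrocyte precursors (log2 -2.19), the cadherin gene Cdh11 (-2.23), the fibulin gene Fbln1 (-2.88) and the meningeal transporter gene Slc47a1 (-5.35), named after their values were seen, like Slc13a3, Islr and Zic1. The deposited minimum bears on this count: of 12 genes kept through Input alone 11 fell, beside 1531 of the 1897 such genes in all. Of the 15 kept through both fractions 3 fell and 7 rose, beside 1696 falls and 2583 rises among the 8509 such genes in all. Slc6a13, a marker of perivascular fibroblasts also named after its value was seen, did not pass (log2 0.10 ± 0.30, adjusted p = 0.788). With libraries left out, the count of this list called lower ran from 11 to 14, lowest without both libraries of 1222. The count called higher ran from 7 to 8. With the replicate block 15 were called lower and 8 higher.

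The other fibrillar and fibril-associated chains divided by how each had entered the table. Of 9 other fibrillar or fibril-associated chains tested, 7 fell (median log2 -2.68) and 2 rose. Col9a3, a chain of a fibril-associated collagen, fell from 124.1, 113.1 and 113.0 CPM in Input 1222, 1223 and 1227 to 8.5, 9.53 and 8.31 CPM in Positive (log2 -3.75 ± 0.15). Col14a1, which binds the surface of fibrils, rose from 16.3 ± 3.07 to 71.8 ± 15.9 CPM (SD, n = 3; log2 2.17 ± 0.22). Col5a2, a minor chain within type I fibrils, rose by log2 0.63 ± 0.21 (adjusted p = 0.0284), but its call ended without Input 1223 (log2 0.49), Input 1227 (0.66), Positive 1222 (0.53) or Positive 1223 (0.65), without both libraries of 1222 (0.67), 1223 (0.50) or 1227 (0.74), and without scaling beyond library size (0.47). All 7 chains that fell were kept through Input alone, where most genes fell, and both that rose were kept through both fractions.

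Of 11 network, beaded-filament and multiplexin chains tested 7 fell and 3 rose. The count that fell was 5 without Input 1222 and without both libraries of 1222 or of 1227. Of the 7 falls 6 were of chains kept through Input alone, the type VI chains among them, and of the 5 chains kept through both fractions 1 fell and 3 rose. The 3 that rose had the highest means over all 6 libraries: Col4a1 (log2 2.76 ± 0.19) and Col4a2 (2.77 ± 0.22), the common type IV chains, and Col18a1 (1.31 ± 0.17). In Input alone Col8a2, which fell (log2 -3.81) and is named after its value was seen, stood above Col18a1, at 83.7 against 66.3 CPM. The type VI chain genes Col6a1 (log2 -4.12 ± 0.51), Col6a2 (-2.60 ± 0.33) and Col6a3 (-2.66 ± 0.39), named after their values were seen and known for the microfibrils of connective tissue, fell. Per kb, mean Col4a1 exceeded mean Col1a2 in both fractions, 56.1 against 18.4 CPM per kb in Input and 378.8 against 7.05 in Positive.

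**Figure D3:**
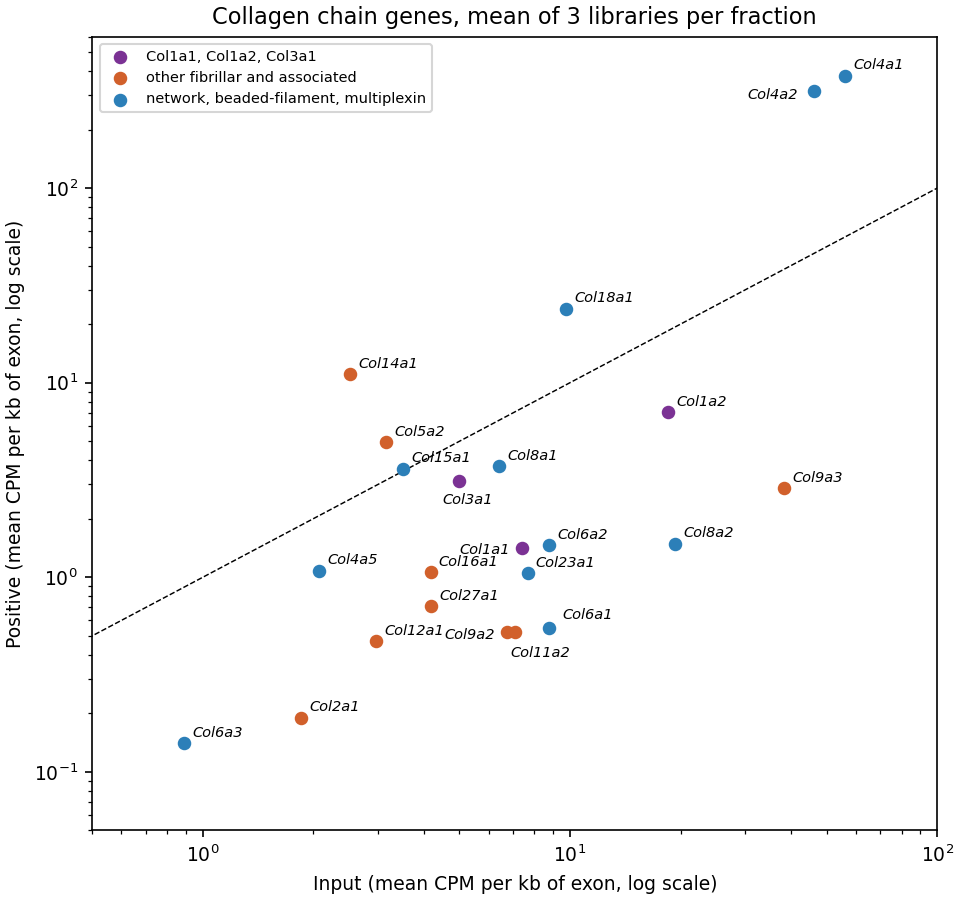
Mean level of each tested collagen chain gene in Input (x axis) and Positive (y axis), CPM per kb of exon on log scales, n = 3 libraries per fraction; the dashed line marks equal levels. Col1a1, Col1a2 and Col3a1 lie below the line, as do most fibrillar and type VI chains. Col4a1, Col4a2, Col18a1, Col14a1 and Col5a2 lie above it, and Col15a1, which was not called, lies just above it.

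Of 24 enzymes, chaperones and other genes tested that fold, trim and crosslink collagen, 8 rose, 9 fell and 7 were not called (median log2 0.03). Of the 9 falls 6 were of genes kept through Input alone, and among the 16 kept through both fractions 3 fell and 7 rose. Those with the highest mean levels were Sparc, which encodes a collagen-binding matrix protein (log2 1.17 ± 0.21, called higher), Serpinh1, the gene of the collagen chaperone HSP47 (1.77 ± 0.17, called higher), and P4hb, a subunit of prolyl 4-hydroxylase (0.31 ± 0.13, adjusted p = 0.0652). P4hb passed with the replicate number as a block (log2 0.31, adjusted p = 0.0214) and by DESeq2 (0.30, 0.0484), and over all 16 other settings its adjusted p ran from 0.0214 to 0.311. The 9 that fell were P4ha1 (log2 -1.44), Bmp1 (-1.0), Pcolce (-1.47), Leprel1 (-1.35), Pcolce2 (-4.34), Loxl3 (-1.56), Loxl1 (-3.34), Adamts2 (-4.15) and Creb3l1 (-2.73). Among these, Bmp1, Pcolce, Pcolce2 and Adamts2 act in the trimming of procollagen outside the cell, and Loxl1 and Loxl3 belong to the crosslinking oxidases. Leprel1 lost its call without Input 1222 (log2 -0.94), Positive 1223 (-1.26), Positive 1227 (-1.17) or both libraries of 1227 (-1.22). The count of 8 higher ran from 4 to 7 with libraries left out. It was 5 with number 1222 left out, 4 with number 1227 left out, 6 with library size only and 10 with the replicate block.

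Beside Dcn, 3 of 12 listed small leucine-rich proteoglycans were tested. Biglycan, encoded by Bgn and the closest relative of decorin, did not pass (log2 0.34 ± 0.20, adjusted p = 0.182; 80.6 and 102.8 CPM), and the fractions overlapped. Prelp (log2 -2.16 ± 0.23) and Ogn, the osteoglycin gene (-1.67 ± 0.41), fell; Ogn was kept through Input alone and did not pass without both libraries of 1222 (-1.34, adjusted p = 0.0876, the highest over its 16 other settings). Of 7 collagen receptors tested 2 rose, the integrin chains Itgb1 (log2 1.46 ± 0.12) and Itga1 (2.78 ± 0.19), which pair as a collagen-binding integrin, and 4 fell, led in level by Ddr1, a collagen-activated kinase (-3.80 ± 0.26). Of these 4 falls 2 were of genes kept through Input alone. Of 6 collagen-degrading proteases and inhibitors tested 5 fell (3 of them kept through Input alone), with Timp2 at log2 -1.40 ± 0.17 and Timp4 at -3.85 ± 0.27, and Timp3, an inhibitor bound to matrix, rose (1.16 ± 0.20).

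Around Igf2, the ligand was lower in the sorted cells while the receptor genes Igf1r and Insr were higher. Of 19 listed IGF genes 12 were tested, and 4 rose and 5 fell (median log2 0.24), 3 of the falls being of genes kept through Input alone. Igf1r, the signalling receptor, rose from 99.7, 110.5 and 93.3 CPM in Input 1222, 1223 and 1227 to 650.8, 626.2 and 624.4 CPM in Positive (log2 2.65 ± 0.13). Igfbp7, an IGF-binding protein of vessels, rose by log2 2.63 ± 0.16, and Insr (1.79) and Igfbp3 (1.73), which like Igf2r and Igf1 are named after their values were seen, were the other 2 that rose. Igf2r, the receptor that clears IGF2, did not pass (log2 0.04 ± 0.17, adjusted p = 0.852). The binding protein genes Igfbp2 (log2 -3.37 ± 0.20), Igfbp5 (-3.16 ± 0.38) and Igfbp6 (-1.77 ± 0.35) and the adaptor genes Irs1 (-1.98 ± 0.43) and Irs2 (-3.37 ± 0.42) fell. Igf1, the related ligand, was not called (log2 0.72 ± 0.50, adjusted p = 0.26), with Positive 1227 at 7.41 CPM below all Input libraries.

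**Figure D4:**
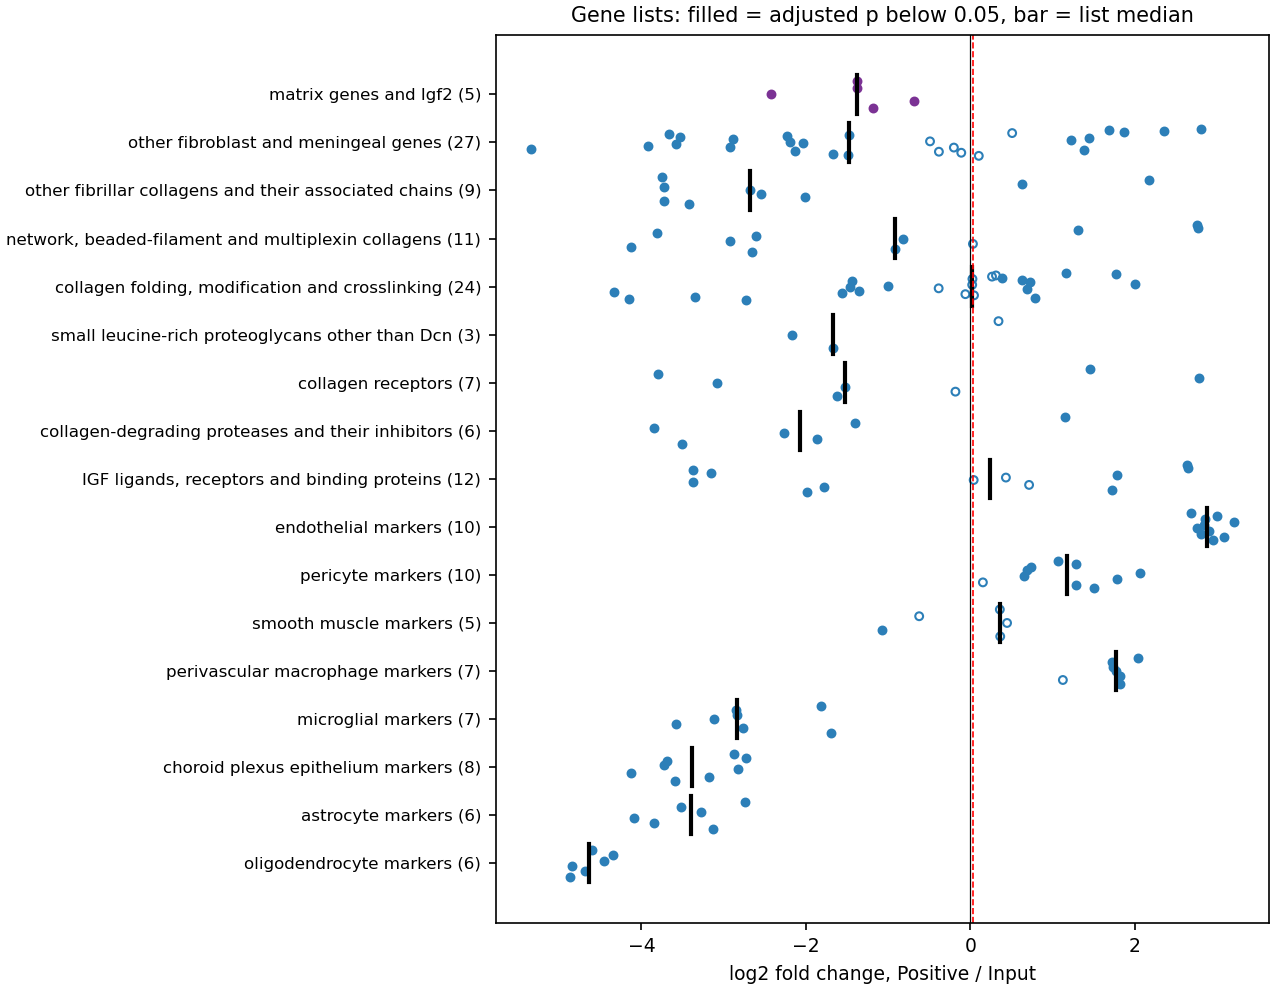
Log2 fold change, Positive over Input (x axis), of each tested gene by list (y axis, number tested in brackets); filled points passed adjusted p below 0.05, bars are list medians and the dashed red line is the median of all genes. The matrix genes with Igf2 (5, top) lie between -2.42 and -0.69, nearer to 0 than every oligodendrocyte gene.

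Markers of other cells that the suspension holds moved as follows. All 10 endothelial markers rose (median log2 2.88), and their summed level was 2270 to 3057 CPM in Input and 17947 to 19452 CPM in Positive. Among them Pecam1 encodes CD31 and Tek encodes Tie2, which the sort and the reporter used, so their rise was built into the design. All 7 microglial (with Itgam, the gene of CD11b, which the sort selected against), 8 choroid plexus, 6 astrocyte and 6 oligodendrocyte markers fell, with medians of -2.84, -3.38, -3.40 and -4.64. Against these, the summed level of Col1a1, Col1a2, Col3a1, Dcn and Igf2 in Positive was 30.2%, 45.6% and 41.3% of Input in 1222, 1223 and 1227, and that of the oligodendrocyte markers 4.6%, 2.3% and 6.9%. Igf2 held most of the sum of the 5 genes. By itself Col1a1 was at 9.1%, 44.8% and 20.4% and Col3a1 at 45.8%, 76.1% and 73.6% of Input in these numbers. The microglial sum in Positive was 0.204, 0.226 and 0.121 of Input, and the astrocyte sum 0.124, 0.104 and 0.1. The markers of choroid plexus epithelium, whose tissue also holds Igf2, were at 13.1%, 14.7% and 12.9%, with Enpp2 and Ttr the largest parts of that sum. No test was made of these differences between lists. Of 10 pericyte markers 9 rose (5 without both libraries of 1227), with a summed level of 725 to 864 CPM in Input and 1339 to 2086 CPM in Positive. Of 7 perivascular macrophage markers 6 rose, but 2 with the replicate block and from 0 to 7 when libraries were left out, with 0 without Input 1227 or with number 1222 or 1223 left out, 1 without Input 1223 or Positive 1222 and 2 without Input 1222. Their summed level was 2047, 747 and 295.6 CPM in Positive 1222, 1223 and 1227, against 241.7 to 318.4 CPM in Input. Of 5 smooth muscle markers Tagln fell (log2 -1.07, adjusted p = 0.0294) and 4 were not called, and Tagln lost its call without Input 1223 (log2 -0.64), Input 1227 (-1.11), Positive 1222 (-1.01) or Positive 1223 (-1.05), and without both libraries of 1223 (-0.62) or of 1227 (-1.21), and by limma (-0.89). Other counts moved too: without Input 1223 Mylk (log2 0.62, adjusted p = 0.00989) and Des (0.94, 0.0126) were called higher, as they were without both libraries of 1223. Without Input 1222 Myh11 was called lower (-0.87, 0.0185), as it was without both libraries of 1222, and by limma Mylk was called higher (0.52, 0.0425). Over their 16 other settings the adjusted p ran from 0.00739 to 0.342 for Mylk, from 0.00932 to 0.968 for Des, named after its values were seen, and from 0.0185 to 0.68 for Myh11. The part of pericytes, muscle or macrophages in the levels of the 5 genes was not tested.

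Input 1223 was low for many genes besides the collagens and Dcn. It was the lowest Input library for 4 of the 5 genes, for 13 of the 27 other fibroblast and meningeal genes and for 44.7% of all genes. The same library had the highest summed endothelial, pericyte, smooth muscle, perivascular macrophage, choroid plexus and oligodendrocyte markers of Input and the lowest astrocyte and microglial ones, the latter at 4959 CPM against 8965 and 9429. Both 1223 libraries were shallow, with 4814966 and 4772866 summed estimated counts against 19708830 to 52283556 in the others. The within-number fall was smallest in 1223 for each of the 5 genes and largest in 1222. All 5 kept their calls without Input 1223 and without both libraries of 1223, and with Input 1223 left out their log2 fold changes were -2.72 (Col1a1), -1.61 (Col1a2), -0.84 (Col3a1), -1.44 (Dcn) and -1.35 (Igf2).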

How the data were processed

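The deposited table gives 2 kinds of values for 10989 genes in 6 libraries. The raw columns are estimated counts as deposited by the authors, not normalized, of which 4.68% of values are whole; per the file headers a gene was deposited when all libraries of at least 1 fraction had 50 or more. The normalized columns are the authors' log2 values as deposited, whose differences from log2 of the raw values come to 1 constant per library and 1 per gene, and they were used only as an alternative. Per the submitters' processing notes the build was mm10 and the tools include DESeq; no source used here names the aligner, the counter or how strand was used. Summed estimated counts ran from 4772866 to 52283556 per library, so counting error is larger in both 1223 libraries.

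Estimated counts were rounded and tested with edgeR 4.0.16 in R 4.3.3 (TMM, filterByExpr with a minimum of 10, quasi-likelihood test, fraction as the only term), with Benjamini-Hochberg adjustment over all 10989 genes and a threshold of 0.05. Levels are CPM of TMM-adjusted library size. The script was tested on simulated data. Alternatives were RLE scaling, library size only, DESeq2 1.42.0, limma 3.58.1 on the deposited log2 values, no filter, at least 10 counts in every library, the replicate block and leaving out libraries. Deviations from fraction means correlated across genes between the libraries of a replicate number at 0.45 (1222), 0.23 (1223) and 0.30 (1227). Each was above any correlation with another number (at most 0.02), but centring on fraction means itself lowers those other correlations. Whether libraries of 1 number share an animal or only their handling was not tested.

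The 5 genes and all 16 other gene lists (227 symbols listed with the 5; 162 matched by symbol, 1 by Entrez identifier, 64 not analysed here) were chosen with earlier results of these data known. Named genes are the 5, up to 3 per list by mean level and those called against the sign of the list's median, the 3 nearest in pattern to each of the 5, and examples marked as chosen after their values were seen; for marker lists of other cells mostly counts are given. The nearest genes were sought among those at no less than 50% of the level of the gene, without predicted or clone names. Exon lengths are from GENCODE M21 (GRCm38).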

Additional observations from a re-analysis of the deposited data

How the results depend on the processing

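Over the 16 other settings Col1a1 ran from log2 -2.85 to -1.84, Col1a2 from -1.61 to -1.21 and Igf2 from -1.54 to -1.26, and all 3 passed in each of them. Col3a1 lost its call in 7 settings and Dcn in 5, with no change of direction. By limma on the deposited log2 values Col3a1 did not pass (log2 -0.58, adjusted p = 0.075). With libraries left out, Col3a1 ran from -0.84 to -0.42, Dcn from -1.56 to -0.89 and the number of the 5 genes called lower from 3 to 5. The replicate block changed no call of the 5 (log2 -2.41, -1.37, -0.67, -1.21 and -1.39 for Col1a1, Col1a2, Col3a1, Dcn and Igf2). Library size alone moved the median of all genes by -0.157 on the log2 scale and the 5 genes by like amounts (Col3a1 to -0.85). Dropping the filter gave the same values, since filterByExpr removed no gene. Among 66 other genes named by rule, 1003 of 1053 values kept their side of the threshold, 43 lost and 7 gained a call, and none changed direction. Over all genes 2870 were higher and 1741 without both libraries of 1227. With single libraries left out, the 5 ratios whose fractions did not overlap kept their sign, and those of Col1a2 to Igf2, Dcn to Igf2 and Col1a2 to Dcn each took both signs. The depth of the 1223 libraries limits Dcn and Col1a1, which had 33.0 and 46.4 estimated counts in Positive 1223.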
